A study of Mus musculus with 2 samples.

Results

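The let-7 family with miR-98 was taken as the 9 mouse miRNAs that the array names mmu-let-7a, mmu-let-7b, mmu-let-7c, mmu-let-7d, mmu-let-7e, mmu-let-7f, mmu-let-7g, mmu-let-7i and mmu-miR-98 (the prefix is left out below), out of 1023 mouse miRNAs on it. All 9 were detected on both arrays, in an experiment where 175 of the 1023 were. A further 36 were detected in dbTg only and 5 in WT only, and the shares given below for all detected miRNAs leave these out. One array held RNA from mouse quadriceps of the NF90-NF45 double transgenic (dbTg) genotype, with transgenes for NF90 and for its partner NF45. The other held RNA from wild-type (WT) mouse quadriceps. Both samples were from females, with an age given as 15 to 16 weeks. With 1 array for each genotype there is no test between genotypes, and every value below describes 2 RNA samples. The promoter that drives the transgenes and the number of animals behind each sample are not given in the sources used here.

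The let-7 miRNAs are among the most abundant miRNAs of differentiated tissues. They bind mRNAs through a shared seed near the 5′ end and restrain growth genes such as those for Ras proteins, Hmga2 and Lin28, while the Lin28 proteins in turn block the maturation of let-7 precursors. In skeletal muscle, let-7 is known for restraining insulin signalling and glucose uptake. NF90 binds double-stranded RNA and forms a dimer with NF45, and in cultured human cells their complex was reported to bind the primary transcript of let-7a and to hinder its cleavage by the Microprocessor, the nuclease that releases miRNA hairpins. The comparison asks what the levels of mature let-7 miRNAs are in muscle when both proteins are in excess.

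The mature sequences are shown because the members differ by so few bases. They are RefSeq's (GRCm38.p6), written 5′ to 3′ with the seed, bases 2 to 8, in capitals. All 9 members have the same seed.
let-7a: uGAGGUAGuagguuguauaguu
let-7b: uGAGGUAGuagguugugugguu
let-7c: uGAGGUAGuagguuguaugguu
let-7d: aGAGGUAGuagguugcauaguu
let-7e: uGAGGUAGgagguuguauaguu
let-7f: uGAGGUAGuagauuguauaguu
let-7g: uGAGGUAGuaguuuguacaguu
let-7i: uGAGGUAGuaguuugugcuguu
miR-98: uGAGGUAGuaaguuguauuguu

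Counted from 1 at the 5′ end, let-7c differs from let-7a by A19G, let-7e by U9G and let-7f by G12A. let-7d differs from let-7a by U1A and U16C, and let-7b by A17G and A19G. Over the 36 pairs of members the number of differing bases ran from 1 to 6, and 4 pairs differed by 1 base.

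Each member was read by 2 probes, 18 probes in all, of 18 to 22 bases and with 20 copies of each on an array. The probes start at the 3′ end of the miRNA and reach into its seed, so the members are told apart by the bases outside the seed. The longer probe of each member follows, 5′ to 3′ as the files give it, with capitals where it differs from the probe of let-7a at the same place.
let-7a probe: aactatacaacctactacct
let-7b probe: aacCaCacaacctactacc
let-7c probe: aacCatacaacctactacc
let-7d probe: aactatGcaacctactacc
let-7e probe: aactatacaacctCctacc
let-7f probe: aactatacaaTctactacctc
let-7g probe: aactGtacaaActactacctc
let-7i probe: aacAGCacaaActactacctc
miR-98 probe: aacAatacaacTtactacctca

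All 18 probes matched the mature sequence of their own member and no other in full. In 5 pairs, however, a probe of one lay 1 mismatch from the other member. These were let-7a with each of let-7c, let-7d, let-7e and let-7f, and let-7b with let-7c. Base 1, where let-7d also differs, is not covered by the probes of let-7d. How much of a member's signal came from a close relative was not tested.

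The values below are background-subtracted spot intensities divided by the 75th percentile of the probes detected on that array and on the other, so 1 stands for that percentile. Spot standard errors (spot SE) come from the copies of each probe within an array and hold nothing of the spread between animals. Probes differ in brightness, so the level of one member is not set against that of another. All spots of the 9 members were well above background on both arrays and none was saturated. Mean signals of their probes ran from 204 to 14125 on the dbTg array and from 184 to 9745 on the WT array, while the dimmest detected probe of any miRNA had 32.3 on the dbTg array and 34.5 on the WT array.

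No member differed between the genotypes by as much as 2-fold. Among the 175 miRNAs detected on both arrays, 11.4% were at least 2-fold higher in dbTg quadriceps and 10.3% at least 2-fold lower. At 3-fold, which no member reached either, the share was 2.86% in each direction. The 36 miRNAs detected in dbTg only and the 5 in WT only are not part of these shares. That background moved with the scaling between arrays, from 20 higher and 18 lower to 49 and 8 without scaling, and to 9 and 35 with scaling on positive control probes. The family median log2 ratio of dbTg over WT was 0.15, the value of let-7i. The median over all detected miRNAs, which include the members, was 0.0031, the value of let-7f. Of the 9 members, 7 had a ratio above 0 (77.8%), where 50.9% of all detected miRNAs did and 49.1% had one below 0. That split turned with the scaling as well, to 4 above 0 and 5 below when all miRNA probes or the positive controls set the scale. The differences between members, which a common scale cannot change, are therefore described first.

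The members are described in 3 levels of dbTg over WT ratio, drawn from these same values. let-7b, let-7c and let-7e were the highest, let-7a, let-7i, let-7g and let-7f lay between, and miR-98 and let-7d were the lowest. Only the upper step, of 0.34, was wider than the middle level itself, which spanned 0.30 from let-7a to let-7f. The lower step, from let-7f to miR-98, was 0.26. From let-7c to let-7d the span was 1.09 on the log2 scale, against 6.23 from the highest to the lowest of all 175. The SD of the log2 ratio was 0.40 among the members and 0.89 among all detected miRNAs, and 6 of the 9 members lay between the quartiles of all, at -0.59 and 0.58.

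let-7c had a scaled signal of 4.97 on the dbTg array and 3.09 on the WT array. On the log2 scale this is a ratio of 0.69 (spot SE 0.010), or 1.61-fold higher in dbTg, and rank 36 of the 175 from the top. let-7e, whose gene is grouped with those of miR-99b and miR-125a, had 0.674 on the dbTg array and 0.426 on the WT array, a log2 ratio of 0.66 (spot SE 0.016). let-7b, whose gene neighbours a let-7c gene, had 3.34 on the dbTg array and 2.14 on the WT array, a log2 ratio of 0.64 (spot SE 0.011). These 3 lay within 0.045 of one another and at least 0.34 above the next member. For each of their 6 probes every spot on the dbTg array was brighter, after scaling, than every spot on the WT array.

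These 3 were also the only members at least 1.5-fold higher in dbTg. They make up 33.3% of the family, and 25.1% of all detected miRNAs passed that size in that direction, with 25.1% passing it as lower. No member was at least 1.5-fold lower. This count of 3 depended on the processing, with 0 members for all miRNA probes, positive controls, the total gene signal or the authors' values, 2 for quantile normalization or normexp, 4 for spike-in probes and 5 without scaling. let-7d passed as lower for positive controls and for the total gene signal. For let-7c the shorter probe ran from 3.07 to 3.39 with a median of 3.22 on the dbTg array, and from 1.86 to 2.11 with a median of 2.01 on the WT array. The longer probe had medians of 7.70 on the dbTg array and 4.79 on the WT array. Its log2 ratio of 0.68 was close to the 0.69 of the shorter probe.

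let-7a, the best studied member and a repressor of Ras genes, came next, with a scaled signal of 6.98 on the dbTg array and 5.65 on the WT array. Its log2 ratio was 0.30 (spot SE 0.0068), and the spots of the genotypes did not overlap for either probe. let-7i had 2.76 on the dbTg array and 2.49 on the WT array (log2 ratio 0.15, spot SE 0.013). let-7g, which lies within the bounds of the gene Wdr82, had 2.89 on the dbTg array and 2.69 on the WT array (log2 ratio 0.10, spot SE 0.011). For let-7i and let-7g the ranges of the spots overlapped between the arrays for both probes. The log2 ratios of let-7i and let-7g differed by 0.047.

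let-7f had 7.16 on the dbTg array and 7.14 on the WT array, a log2 ratio of 0.0031 (spot SE 0.013). Its rank was 88 of 175, so that let-7f was itself the median miRNA of the array. It was the one member whose probes had opposite signs, with log2 ratios of -0.061 for the shorter and 0.067 for the longer probe. The spots of both probes overlapped between the arrays.

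let-7d was the lowest member, with a scaled signal of 2.67 on the dbTg array and 3.53 on the WT array. Its log2 ratio was -0.40 (spot SE 0.014), a dbTg level of 0.755 times that of WT, at rank 119 of 175. On the shorter probe it ran from 1.74 to 2.01 with a median of 1.86 on the dbTg array, and from 2.40 to 2.68 with a median of 2.59 on the WT array. The spots of the genotypes did not overlap for either probe of let-7d. miR-98, which shares the let-7 seed under another name, had 0.198 on the dbTg array and 0.237 on the WT array, a log2 ratio of -0.25 (spot SE 0.018). Its spots overlapped for the longer probe and not for the shorter.

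**Figure D1:**
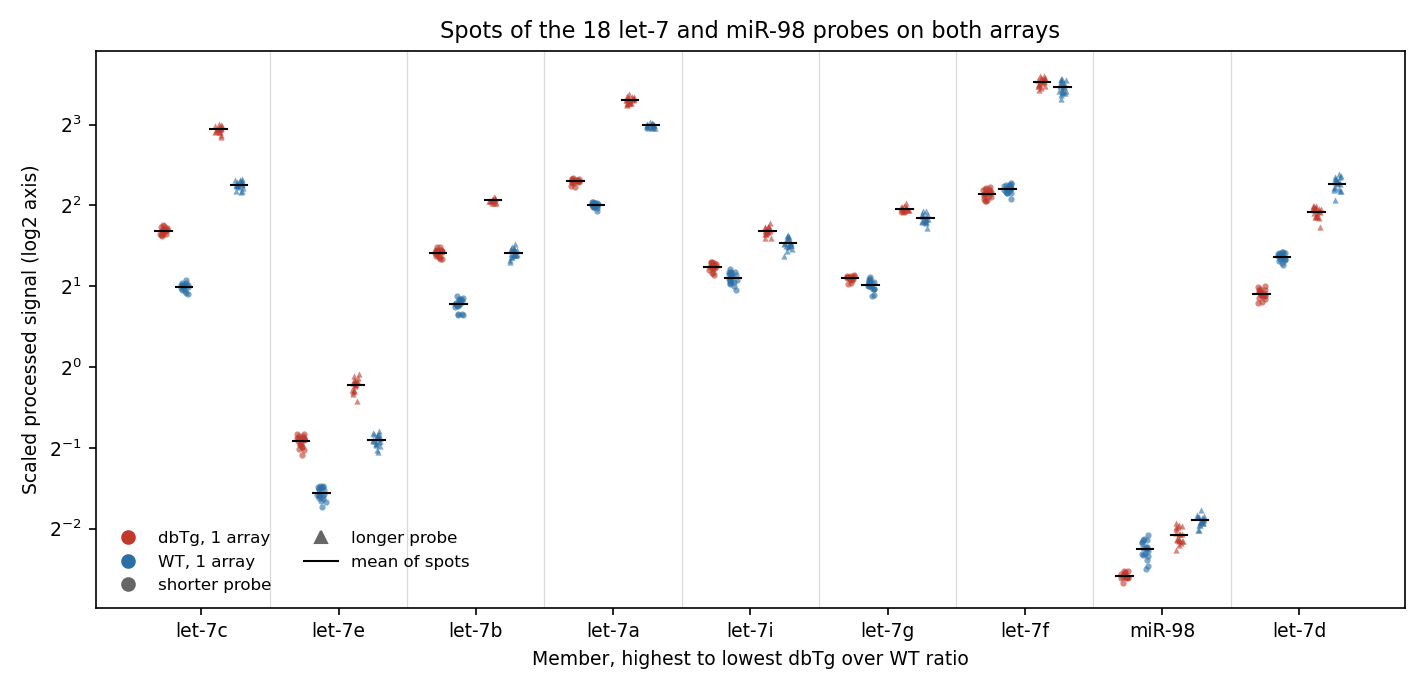
Scaled processed signal (log2 axis; 1 is the 75th percentile of the detected probes) of each unflagged spot of the shorter (circles) and longer (triangles) probe of the 9 members, on the dbTg array (red, left) and the WT array (blue, right); black bars are means over spots. For let-7c, let-7e and let-7b the dbTg spots lie wholly above the WT spots, for let-7d they lie wholly below them, and for let-7f, let-7g and let-7i they overlap.

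Within most members, both probes gave nearly the same ratio. The shorter probe of a member lies wholly within the longer one, so both read the same bases and are not independent. The difference between the probes of a member had a median size of 0.037 and ran from 0.0071 to 0.14, and 8 of 9 members had probes of 1 sign. The longer probe gave the higher log2 ratio in 8 of the 9, with let-7c the exception. let-7f, miR-98 and let-7d had the widest gaps, with miR-98 at -0.33 on the shorter and -0.18 on the longer probe and let-7d at -0.46 and -0.35. Over the 18 probes, the spots of the arrays did not overlap for 11 and overlapped for 7. Overlap of spots was read at the main scaling only, here and above, and was not recounted under the others. let-7a and let-7d did not overlap there, but let-7a came to a log2 ratio of 0.0065 with positive controls and let-7d to 0.063 without scaling. The coefficient of variation between spots of a member's probe was at most 7.67%.

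**Figure D2:**
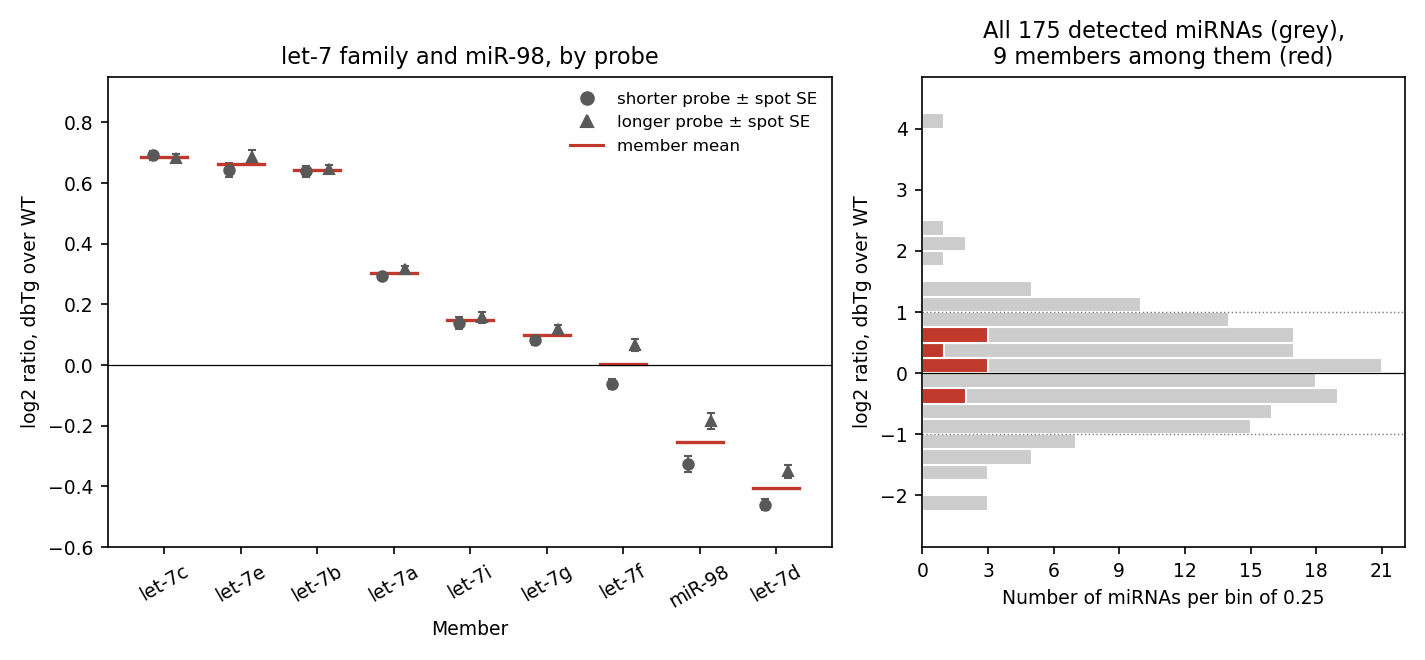
Left, log2 ratio of dbTg over WT for the shorter (circles) and longer (triangles) probe of each member, with bars for the spot SE and red lines for the mean of both probes. Right, number of all 175 detected miRNAs per bin of 0.25 in log2 ratio (grey) with the 9 members among them (red) and dotted lines at 2-fold; the members lie between -0.40 and 0.69, inside the dotted lines.

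The spots were also paired by their place on the array, since both arrays have the same layout. Of 322 pairs of unflagged spots, 230 were brighter on the dbTg array after scaling. All spot pairs of let-7a, let-7b, let-7c, let-7e, let-7g and let-7i were above 0 in log2 ratio, and all of let-7d and miR-98 were below. Only let-7f had pairs on both sides, with 1 of 19 above 0 for the shorter probe and 17 of 20 for the longer. A place effect common to both arrays does not enter these pairs, and the median log2 ratio of the pairs, averaged over probes, was 0.68 for let-7c, -0.40 for let-7d and -0.011 for let-7f. This pairing was added after the data were seen. The pairs are copies of probes on 2 arrays and not animals, and their signs were counted at the main scaling only. With scaling on positive controls the log2 ratio was -0.20 for let-7g and -0.15 for let-7i, and both were below 0 in 4 of 15 alternatives.

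Pairs of members a single base apart did not all share a ratio. let-7a and let-7c differed by 0.38 in log2 ratio, let-7a and let-7e by 0.36, and let-7a and let-7f by 0.30. let-7b and let-7c, apart by G17A, differed by 0.045. Over all 36 pairs, the median difference was 0.33 at 1 differing base, 0.45 at 2, 0.59 at 3 and 0.40 at 4, with 4, 10, 11 and 9 pairs. The pairs share members and are not independent, so this is a description only.

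The genes of the members lie in 8 places in the genome. In mm9, the build of the array's annotation, the probes of let-7d match chromosome 13 on the minus strand at chr13:48631400-48631417, those of let-7f, on the same strand, at chr13:48633206-48633226 and those of let-7a, also on the minus strand, at chr13:48633562-48633581. let-7a has a second match at chr9:41344817-41344836 and let-7f a second one on chromosome X at chrX:148346897-148346917, near miR-98 at chrX:148347773-148347793. let-7c matches chr15:85537049-85537067 and chr16:77599920-77599938, and let-7b chr15:85537759-85537776. let-7e matches chr17:17967334-17967351, let-7g chr9:106081179-106081198 and let-7i chr10:122422703-122422722, the last on the minus strand. Strands were read from the order of start and end, and matches with no strand named are on the plus strand. For the 6 members with 1 locus the annotated span is 1 base shorter than the probe, so an end may be off by 1 base. let-7a, let-7c and let-7f have 2 loci each, and the array cannot say which locus their signal came from.

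In RefSeq's annotation of GRCm38.p6 the let-7f-2 and miR-98 genes lie within the bounds of Huwe1, which encodes a ubiquitin ligase, and let-7e within those of Spaca6. The genes of let-7b and let-7c-2 lie within the long noncoding RNA gene Lncppara, and that of let-7a-2 within Mir100hg. Whether these positions are exonic or intronic was not analysed here.

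Members with genes side by side did not all have the same ratio. Each cluster below includes let-7a, let-7c or let-7f, whose ratios pool 2 loci. The spans are therefore not those of a cluster's own products alone. In the cluster of let-7a-1, let-7f-1 and let-7d, the log2 ratios were 0.30, 0.0031 and -0.40, a span of 0.71. let-7f and miR-98 span 0.26. let-7b and let-7c, neighbours on chromosome 15, span 0.045.

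Of the other miRNAs grouped with let-7 genes, from the miR-99/100 and miR-125 families, 11 names are on the array, 5 passed detection in both samples, 1 in dbTg alone and 5 in neither. Their median log2 ratio was 0.36, and 4 of the 5 were above 0, where 50.9% of all detected miRNAs were. None differed by 2-fold, beside 11.4% of all that were higher and 10.3% that were lower. This count also moved with the scaling. Without scaling miR-125a-5p reached 1.39 and miR-99b 1.03, and with positive controls miR-100 reached -1.06. In the cluster of let-7e all 3 main products were higher in dbTg quadriceps, under all 15 alternatives of the processing, although miR-99b came to 0.018 in log2 ratio with normexp background correction. There miR-125a-5p had a scaled log2 signal of -2.31 on the dbTg array and -3.23 on the WT array, a log2 ratio of 0.92 (spot SE 0.027), and miR-99b had -3.58 on the dbTg array and -4.14 on the WT array, a ratio of 0.56 (spot SE 0.044). The second arm miR-125a-3p was well above background on the dbTg array only, on 1 of its 4 probes, at least 1.54-fold higher.

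The ratios set beside one another in the remaining clusters were mixed, but those of let-7a, let-7c and miR-125b-5p each pool 2 loci. miR-100, encoded beside let-7a-2, had a scaled log2 signal of -1.53 on the dbTg array and -0.77 on the WT array. Its log2 ratio of -0.76 (spot SE 0.019) stands against 0.30 for let-7a. miR-99a, encoded beside let-7c-1, had a log2 ratio of 0.089 (spot SE 0.015) against 0.69 for let-7c, and turned negative in 5 of 15 alternatives. miR-125b-5p, made from both of those clusters, had a log2 ratio of 0.36 (spot SE 0.014). From miR-100 to miR-125b-5p the span was 1.13, the widest of the 8 clusters, with the pooled ratio of miR-125b-5p at its upper end.

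**Figure D3:**
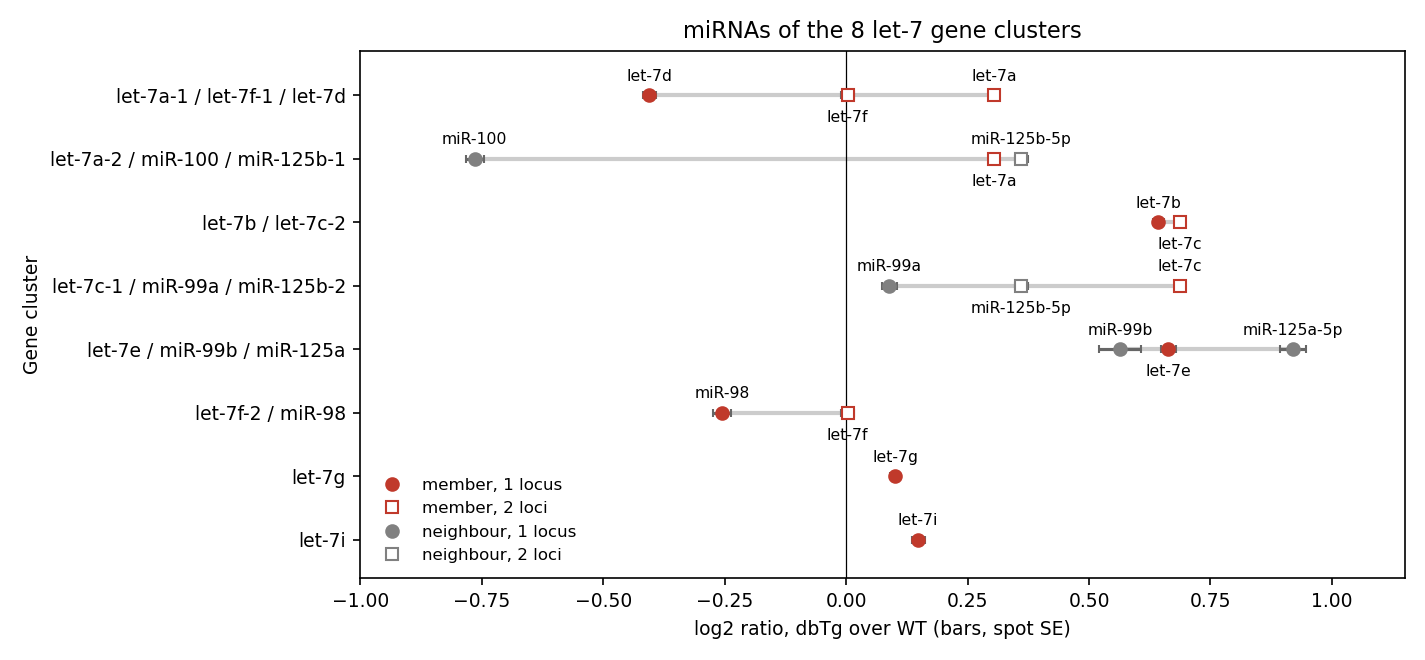
Log2 ratio of dbTg over WT, with bars for the spot SE, of the miRNAs detected on both arrays from each of the 8 let-7 gene clusters; red marks members, grey neighbours, and open squares miRNAs that 2 loci encode. The cluster of let-7e lies wholly above 0.50, while the cluster with let-7d spans -0.40 to 0.30 and the one with miR-100 spans -0.76 to 0.36. The upper ends of the latter spans, let-7a and miR-125b-5p, are ratios that pool 2 loci.

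A let-7 hairpin holds the mature miRNA in its 5′ arm and a second arm, marked with an asterisk in the array's names, in its 3′ arm. The hairpins of let-7e and let-7d, which have 1 locus each and lie at opposite ends of the family's ratios, are shown with both arms in capitals (RefSeq, GRCm38.p6).
Mirlet7e: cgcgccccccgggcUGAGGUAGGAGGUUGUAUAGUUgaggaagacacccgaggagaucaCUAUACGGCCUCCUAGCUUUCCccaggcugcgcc
Mirlet7d: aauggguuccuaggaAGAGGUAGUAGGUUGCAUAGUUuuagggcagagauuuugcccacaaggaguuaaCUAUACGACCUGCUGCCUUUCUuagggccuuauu

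None of the family's 11 second arms was detected in either sample. Their mean signals, over each arm's probes, ran from -1.32 to 12.5 on the dbTg array and from -2.52 to 13.6 on the WT array, under the dimmest detected probes. let-7d* had 8.20 on the dbTg array and 12.1 on the WT array, and let-7e* had 2.73 on the dbTg array and -1.20 on the WT array. Hence no ratio can be given for the second arms, and a change of arm use was not detectable at this signal. Probes of let-7a-1* also match the second arm of let-7c-2, which has the same sequence. One further mouse miRNA on the array has the let-7 seed, miR-1961, and it too was detected in neither sample.

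The miRNAs outside the family whose log2 ratio lay nearest to the family median were miR-320 at 0.15, miR-106b at 0.16 and miR-374c at 0.13, within 0.016 of it. miR-320 and miR-374c were dim and had 1 detected probe each, with spot SE of 0.091 and 0.075, wider than that distance. miR-106b had 2 probes and a spot SE of 0.017. This likeness rests on 1 difference between 2 arrays.

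The members' deposited processed values, which come with the series, gave the same order. In the authors' deposited table let-7c had 32.4 for dbTg and 22.7 for WT, let-7a had 44.1 for dbTg and 40.1 for WT, and let-7d had 16.9 for dbTg and 24.9 for WT. let-7f had 47.6 for dbTg and 52.6 for WT there, a log2 ratio of -0.14 where the main scaling gives 0.0031.

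The direction of several members depended on how the arrays were put on 1 scale. let-7f, let-7g and let-7i had log2 ratios of -0.16, -0.064 and -0.017 with scaling on all miRNA probes, and of 0.47, 0.57 and 0.62 without scaling. let-7a was above 0 in all 15 alternatives but came to 0.0065 with scaling on positive controls. let-7b, let-7c and let-7e were above 0 in all 15 and exceeded 2-fold without scaling, at 1.11, 1.16 and 1.13. let-7d was below 0 in 14 of the 15, the exception being 0.063 without scaling. miR-98 was below 0 in 13, with 0.21 for unscaled arrays and 0.039 for arrays scaled on the spike-ins.

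Which members made up the 3 levels did not change where the signs did. let-7b, let-7c and let-7e were the 3 highest and let-7d and miR-98 the 2 lowest in all 15 alternatives. In 7 of the 15, however, the members keep their differences by construction, since these change 1 factor per array or a filter that every member spot passes. The other 8 gave 6 distinct patterns, because the brightest probe was also the longest one for the members and the authors' values followed the total gene signal. Over these the gap between the 3 highest and the next member ran from 0.21 to 0.34, and the span of the family from 1.04 to 1.13. Within the levels the order was not settled. let-7c was the highest in 3 of the 6 patterns and let-7e in 3, and quantile normalization put let-7f, at 0.046, above let-7g, at 0.028.

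**Figure D4:**
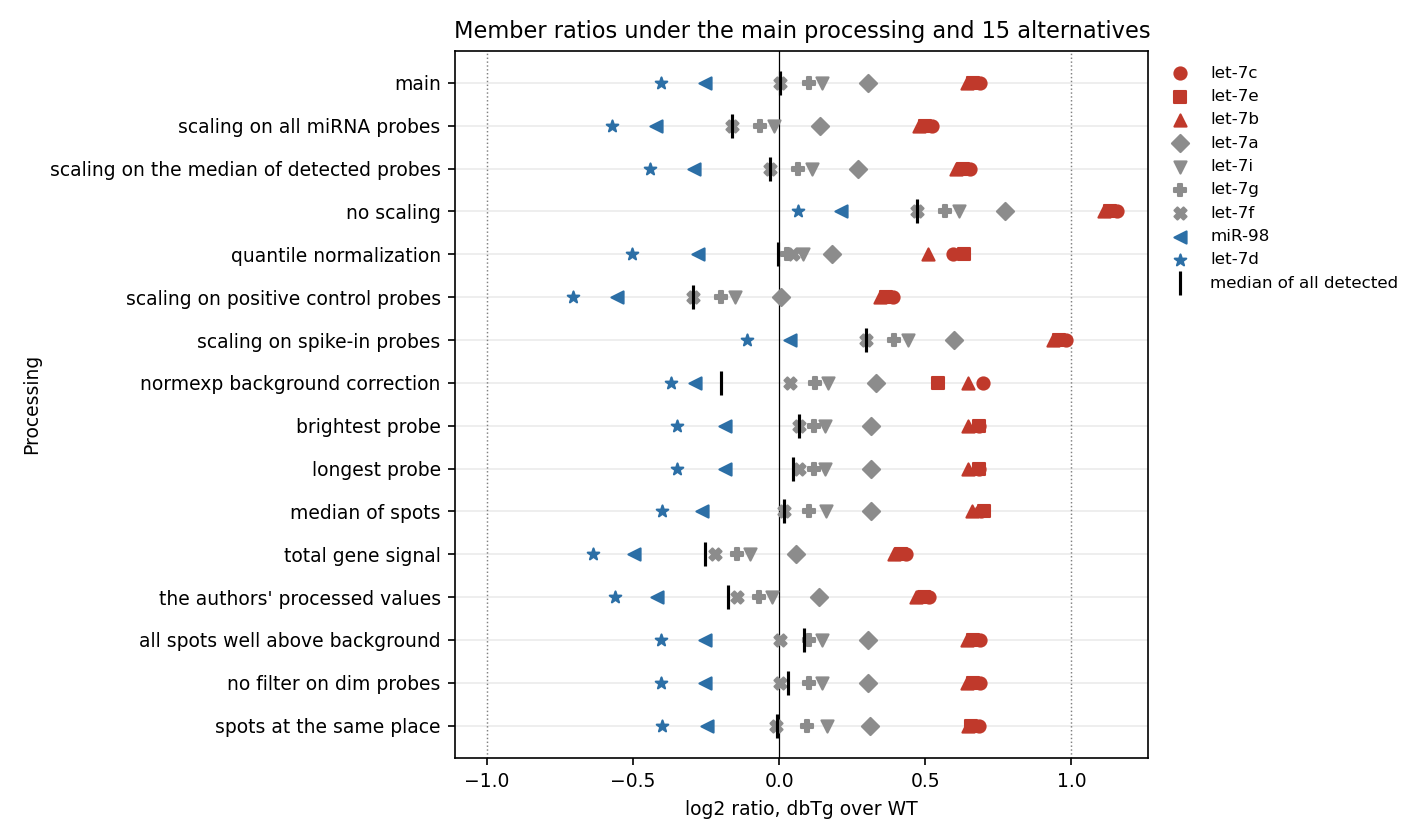
Log2 ratio of dbTg over WT of the 9 members (symbols) under the main processing and 15 alternatives, 1 line each, with the median of all detected miRNAs as a black bar and dotted lines at 2-fold. let-7b, let-7c and let-7e (red) stay the 3 highest and let-7d and miR-98 (blue) the 2 lowest on every line, while the whole family moves with the scaling, to a median of 0.62 without scaling and -0.15 with positive controls.

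Markers of cell types were read on the same arrays. Probes differ in brightness, so a summed signal is weighted to the brightest miRNAs of its list. The 4 skeletal muscle miRNAs were detected in both samples, with a summed scaled signal of 178 on the dbTg array and 315 on the WT array, and 3 of the 4 were lower in dbTg. The exception was miR-206, with a scaled signal of 11.1 on the dbTg array and 0.641 on the WT array, whose log2 ratio of 4.11 (spot SE 0.015) was the highest of the 175. All 4 blood and immune miRNAs detected in both samples were higher in dbTg, where 50.9% of all detected miRNAs were. Their lowest log2 ratio was 0.26, for miR-150 on 1 probe. The summed signal over the 5 listed was 2.02 on the dbTg array and 0.643 on the WT array. All 4 fibroblast miRNAs were higher too, at 3.92 on the dbTg array and 2.16 on the WT array. The medians of these 3 lists kept their sign in all 15 alternatives, but that of skeletal muscle, -0.94, came to -0.068 with quantile normalization. The single miRNAs of the lists were not followed through the alternatives.

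Both smooth muscle miRNAs were lower in dbTg, with a summed signal of 0.857 on the dbTg array and 1.34 on the WT array. Both red cell miRNAs were lower as well, at 2.51 on the dbTg array and 3.06 on the WT array, but their median turned positive in 2 of 15 alternatives. The 2 endothelial miRNAs lay on either side of 0, at 5.51 on the dbTg array and 5.06 on the WT array. Of the 4 epithelial miRNAs, miR-200a and miR-200b were detected in dbTg alone and miR-200c and miR-141 in neither sample. Neither sample had detected levels of miR-122, the liver marker, or of the neuronal miR-124 and miR-9. The part of these cell types in the let-7 ratios was not tested, and fewer cells of a type cannot be told apart from less of a miRNA per cell.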

How the data were processed

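Total RNA was labelled with Cy3 and hybridised to 1 miRNA array per genotype, per the labels' protocols. Both arrays lay on 1 slide. The authors deposited the spot intensities of the scanner software, which the headers give as Agilent Feature Extraction 10.7.3.1. Its processed signal has the local background and a spatial trend removed and is not scaled between arrays, per the file headers. A table of processed intensity values also comes with the series. The sources used here do not state its scaling.

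Flagged spots were left out, which kept 331 of the members' 360 spots on the dbTg array and 345 on the WT array. The processed signal was averaged per probe. Detection of a probe needed a share of 0.5 or more of its spots well above background. Signals were scaled to the 75th percentile of probes detected on both arrays, 1220 for dbTg and 882 for WT, and log2 ratios were averaged over the probes of a miRNA. A miRNA detected on 1 array has a bound against the lowest detected signal. Differences were counted at a fixed size of 2-fold. Named were all members, the detected miRNAs of the second-arm, cluster and same-seed lists, and the 3 miRNAs nearest the family median; let-7d*, let-7e*, miR-1961 and miR-206 were named after their values were seen. Members and lists were chosen with earlier results of these data known. Mature sequences were found in RefSeq for all 9 members, and for 184 other array miRNAs none matched the probes. Alternatives were other scalings, normexp with an offset of 50 (limma 3.58.1, R 4.3.3), other probe, spot and filter choices, the total gene signal, the authors' values and sizes of 1.5-fold and 3-fold. The calculation of ratios (Python 3.11.15) was tested on simulated data. That test did not address the choice of scale between arrays.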

Additional observations from a re-analysis of the deposited data

How the results depend on the processing

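The family median of 0.15 moved with the scaling, to -0.017 on all miRNA probes, -0.15 on positive control probes, 0.44 on spike-in probes, 0.62 without scaling, -0.10 with the total gene signal and -0.024 in the authors' values. In the other 9 alternatives it moved by less than the spread between spots. Among these, the changes of filter cannot move it, since every member spot passes them. The brightest and the longest probe of each member were the same probe, so those choices gave the same value. Relative to the median of all detected miRNAs, which moved between -0.30 and 0.47, the family median lay 0.063 to 0.37 higher in all 15 alternatives. In the main processing these medians are the ratios of let-7i and let-7f. Both belong to the family, so the gap there is one between members. Alternatives that change only 1 factor per array move both medians alike. In these the gap stayed at the 0.145 of the main processing by construction, so they say nothing about its stability. The count of members at least 2-fold apart was 0 except without scaling, with 3, and it was 3 at 1.5-fold and 0 at 3-fold. With other processing the members at least 1.5-fold higher numbered 0 to 5. Over all detected miRNAs, the count at least 2-fold higher was 20 and ran from 7 to 118, and that of lower ones was 18 and ran from 8 to 91, the upper ends without the filter on dim probes. No paired analysis was possible because each genotype had 1 array. The 2 arrays limit the precision, and spot SE leaves out the spread between animals.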
